A study of Mus musculus with 6 samples.

Results

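The S100 proteins and annexins described here are 10 genes, S100a4, S100a6, S100a10, S100a11, S100a13, Anxa1, Anxa2, Anxa4, Anxa5 and Anxa6, taken by symbol from the 47643 genes of the table. They were followed in NKT1 cells, the T-bet-positive subset of invariant natural killer T (iNKT) cells, T cells with a nearly constant receptor for lipids shown by CD1d. The cells had been sorted from thymi of wild-type BALB/c animals, with no treatment named, and RNA was sequenced in 3 libraries of NKT1 cells with the coreceptor CD4 on their surface and in 3 libraries of NKT1 cells without it. The age of the mice and the number of mice behind a library were not stated in the labels. The comparison asks which of these transcripts differ between NKT1 cells with and without CD4.

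S100 proteins are small EF-hand proteins that mostly form dimers, change shape when they bind calcium and then hold on to target proteins. Annexins bind acidic membrane phospholipids when calcium is present, and they take part in membrane organisation, membrane repair and the contact of membranes with actin. The families meet in shared complexes: S100A10, an S100 protein that has lost calcium binding, forms a stable complex with annexin A2, and S100A11 binds annexin A1. In T cells, S100A4 and S100A6 are known as transcripts of effector and memory cells.

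Levels are TMM-scaled counts relative to the library total (CPM), written in the order of replicates 1, 2 and 3; group values are means ± SD over 3 libraries, with CD4-positive always set first against CD4-negative; log2 differences are CD4-positive minus CD4-negative with a standard error (SE). The libraries held 40480468 to 53145898 estimated counts. Every member had at least 263 counts in each library, and all 10 passed the filter on low counts. Cd4 itself was at 453 ± 53.7 CPM against 22.7 ± 16.2 CPM. Over the 6 libraries Zbtb16 (PLZF), a gene of iNKT cells, was at 60.0 to 151 CPM. Tbx21 (T-bet), the NKT1 gene, was at 297 to 639 CPM. CD4-negative replicate 3 stood apart on the first principal component (score -90.2, the others -2.31 to 32.2). It and CD4-positive replicate 1 had the lowest mitochondrial shares (1.33% and 1.35% of counts, the others 3.51% to 5.19%). Genes with short transcripts were also high in them: the median deviation over 479 genes under 1 kb was 0.35 log2 units in CD4-negative replicate 3 and 0.14 in CD4-positive replicate 1, and -0.22 to -0.07 in the others. The longest transcripts of the S100 members have 498 to 783 bases, and those of the annexin members 1674 to 2623 bases. Results are also given without CD4-negative replicate 3. The part of these library properties in the results was not tested.

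None of the 10 members passed edgeR's quasi-likelihood test at an adjusted p under 0.05, a threshold that 0.212% of 12760 tested genes passed (0.0705% higher and 0.141% lower in CD4-positive cells). At an unadjusted p under 0.05 there were 3 members, S100a4, S100a6 and Anxa1, all lower in CD4-positive cells, beside 4.44% of tested genes in either direction and 2.32% in the lower direction. DESeq2, which called 0.835% of 19410 genes, and limma-voom with quality weights, which called 1.41% of 12760, each called 1 member, S100a4, and limma-voom without weights called 0. S100a4 was also the 1 member with a difference of at least 1 log2 unit, a size reached by 5.22% of tested genes. The groups did not overlap for 5 members: S100a4, S100a6, Anxa1 and Anxa2 were lower and S100a11 was higher in every CD4-positive library than in any CD4-negative one. Of all tested genes 9.41% had groups that did not overlap, 4.57% lower and 4.84% higher. The log2 difference was below 0 for 9 members and for 51.1% of tested genes, with medians of -0.38 and -0.01. Without CD4-negative replicate 3, where 0.335% of genes and 0 members passed, 5 of the 10 members lay above 0 and their median was -0.000214. That omission leaves in CD4-positive replicate 1, the other library of low mitochondrial share. Without both libraries, a setting chosen after seeing the data, 2 of the 10 members lay above 0 and their median was -0.16. In bulk RNA, fewer cells with a transcript and less of it per cell cannot be told apart.

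**Figure D1:**
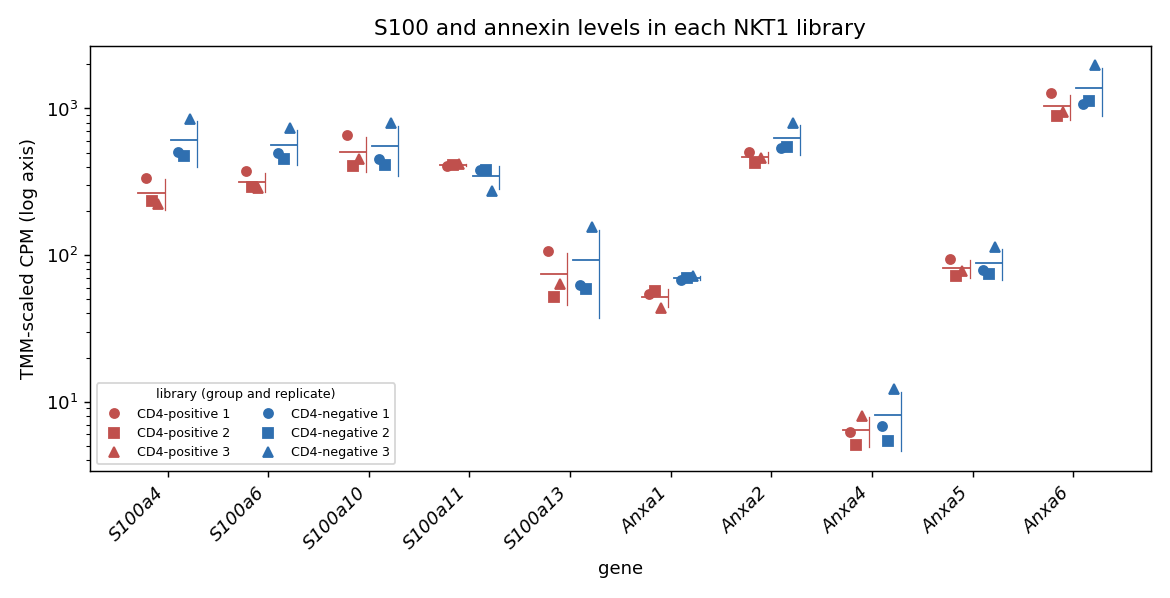
Level of each member in each library (TMM-scaled CPM, log axis), red for CD4-positive and blue for CD4-negative libraries, with circles, squares and triangles for replicates 1, 2 and 3, horizontal lines for group means and vertical lines for 1 SD (n = 3). The S100a4 and S100a6 points of the groups are separate, and CD4-negative replicate 3 is the highest library for every member but S100a11.

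S100a4 (ENSMUSG00000001020.8; GRCm38 chr3:90603771-90606045, plus strand), whose protein binds non-muscle myosin IIA and is linked to cell motility, had the largest difference of the members. It stood at 338, 234 and 224 CPM with CD4 and 507, 472 and 853 CPM without it. The lowest CD4-negative library was above the highest CD4-positive library, and CD4-negative replicate 3 lay far above the rest of its group. The group means were 265 ± 63.1 CPM against 611 ± 211 CPM, a log2 difference of -1.20 (SE 0.29, edgeR adjusted p = 0.324). For S100a4 the adjusted p was 0.00768 by DESeq2 and 0.0158 by limma-voom with quality weights. Without CD4-negative replicate 3 the log2 difference of S100a4 was -0.88 (SE 0.21, edgeR adjusted p = 0.294). Without both libraries of low mitochondrial share, a setting chosen after seeing the data, it was -1.09 (SE 0.11, edgeR adjusted p = 0.0266), and S100a4 was the 1 member among 66 genes called, 0.511% of those tested.

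S100a6 (ENSMUSG00000001025.8; chr3:90612882-90624181, plus strand) encodes calcyclin, which binds CacyBP, an adaptor of the ubiquitin system. It stood at 373, 292 and 285 CPM with CD4 and 500.3, 453 and 739 CPM without it. Here too every CD4-positive library was below every CD4-negative one, with replicate 1 the highest of the CD4-positive and replicate 3 the highest of the CD4-negative libraries. The means were 316 ± 48.9 CPM against 564 ± 153 CPM (log2 -0.83, SE 0.23, edgeR adjusted p = 0.500), and the log2 difference was -0.59 (SE 0.18) without CD4-negative replicate 3. S100a4 and S100a6 lie on the same strand with 6836 bases between them, a stretch that holds S100a5, which had 1 count in the 6 libraries. The ratio of S100a4 to S100a6, each as CPM per kilobase of exon, was 1.84 to 2.12 in CD4-positive libraries, below the 2.37 to 2.70 of the CD4-negative ones.

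S100a11 (ENSMUSG00000027907.4; chr3:93520488-93526287, plus strand), whose protein binds annexin A1, differed in the opposite direction. Its levels were 408, 410.4 and 418 CPM with CD4 and 379, 381 and 275 CPM without it. The CD4-positive libraries lay close together and above the others, and CD4-negative replicate 3, the highest library for the other 9 members, was the lowest for S100a11. The log2 difference was 0.26 (SE 0.18, edgeR adjusted p = 1.0), and 0.12 (SE 0.14) without that library. S100a11 had fractional estimated counts in all 6 libraries, which arise where reads are shared between genes, so its level is uncertain; S100a4 had them in 2 libraries and the other 8 members in 0.

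Anxa1 (ENSMUSG00000024659.14; chr19:20373428-20390944, minus strand) encodes annexin A1, a glucocorticoid-induced protein that signals through formyl peptide receptors. It was measured at 54.7, 57.0 and 43.4 CPM with CD4 and 67.3, 70.0 and 71.8 CPM without it. The groups did not overlap, and CD4-negative replicate 3 lay close to the rest of its group. The log2 difference was -0.43 (SE 0.16, edgeR adjusted p = 0.885), and -0.41 (SE 0.17) without that library. The ratio of S100a11 to Anxa1 per kilobase, a ratio of partners, was 41.0 to 54.8 in CD4-positive libraries and 21.8 to 32.1 in the others. As S100a11 was higher and Anxa1 lower in every CD4-positive library, this ratio had to separate the groups. It also carries the uncertainty of the S100a11 level.

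Anxa2 (ENSMUSG00000032231.14; chr9:69453620-69491795, plus strand), the annexin that pairs with S100A10, was measured at 507, 426 and 459 CPM with CD4 and 539, 545 and 797 CPM without it. The groups were separate by a narrow margin, since CD4-positive replicate 1 lay just below the lower CD4-negative libraries. Its log2 difference was -0.43 (SE 0.20, edgeR adjusted p = 1.0), and -0.22 (SE 0.16) without CD4-negative replicate 3.

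The promoters of these 5 members, the genes whose groups were separate, are shown as the 250 bases before the RefSeq start (GRCm38.p6), 5′ to 3′ on the gene's strand. Capitals mark matches to TATAAA, the TATA box core, to TGANTCA, the AP-1 core, and to GGGCGG, the GC box. Both strands were searched and no matches overlapped. The windows are chr3:90603520-90603769 (plus), chr3:90612644-90612893 (plus), chr19:20390672-20390921 (minus), chr9:69453433-69453682 (plus) and chr3:93520246-93520495 (plus).
S100a4: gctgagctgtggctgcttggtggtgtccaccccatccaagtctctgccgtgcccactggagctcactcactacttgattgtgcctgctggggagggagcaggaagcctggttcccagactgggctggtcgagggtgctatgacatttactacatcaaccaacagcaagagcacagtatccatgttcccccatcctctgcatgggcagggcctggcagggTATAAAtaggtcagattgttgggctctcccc
S100a6: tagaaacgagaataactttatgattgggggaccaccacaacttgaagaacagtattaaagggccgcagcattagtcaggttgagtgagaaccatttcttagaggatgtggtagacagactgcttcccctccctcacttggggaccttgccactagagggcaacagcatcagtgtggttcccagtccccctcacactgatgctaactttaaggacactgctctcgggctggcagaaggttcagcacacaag
Anxa1: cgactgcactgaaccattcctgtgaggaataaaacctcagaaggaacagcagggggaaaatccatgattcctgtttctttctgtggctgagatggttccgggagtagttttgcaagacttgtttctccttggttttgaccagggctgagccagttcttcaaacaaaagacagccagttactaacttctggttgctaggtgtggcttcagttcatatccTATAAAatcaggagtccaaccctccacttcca
Anxa2: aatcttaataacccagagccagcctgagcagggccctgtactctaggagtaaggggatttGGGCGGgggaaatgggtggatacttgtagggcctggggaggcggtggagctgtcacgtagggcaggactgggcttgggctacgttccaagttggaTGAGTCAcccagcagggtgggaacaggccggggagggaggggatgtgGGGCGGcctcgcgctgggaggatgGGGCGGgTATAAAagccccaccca
S100a11: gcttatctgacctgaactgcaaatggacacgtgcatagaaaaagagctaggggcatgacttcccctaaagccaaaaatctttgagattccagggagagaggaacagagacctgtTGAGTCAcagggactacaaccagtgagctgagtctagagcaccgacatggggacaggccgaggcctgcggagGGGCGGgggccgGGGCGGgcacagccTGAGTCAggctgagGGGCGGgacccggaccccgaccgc
TATAAA began 31 bases before the start of S100a4, 32 before that of Anxa1 and 17 before that of Anxa2. It was in 3 of the 9 windows matched to 8 members, and in 12.4% of 32851 windows of the same length. TGANTCA was in the windows of Anxa2 and S100a11 and in 6.75% of all windows. GGGCGG was in the same pair of members and in 32.7% of all windows. The S100a6 window held none of these letters.

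S100a10, S100a13, Anxa4, Anxa5 and Anxa6 had groups that overlapped. For all of them but Anxa4, the highest library of each group was the library with the low mitochondrial share. S100a10 (ENSMUSG00000041959.14; chr3:93555080-93564643, plus strand), the partner of annexin A2, was at 662, 407 and 449.6 CPM with CD4 and 455, 414 and 795 CPM without it. The other 4 libraries lay between 407 and 455 CPM. Its log2 difference was -0.13 (SE 0.31), 0.22 (SE 0.24) without CD4-negative replicate 3 and -0.02 (SE 0.12) without both libraries. The ratio of S100a10 to Anxa2 per kilobase, 2.94 to 4.02 in CD4-positive libraries and 2.34 to 3.07 in the others, overlapped between the groups.

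S100a13 (ENSMUSG00000042312.9; chr3:90514435-90524581, plus strand), known for a part in the export of FGF1, varied most within the groups. It stood at 107, 51.9 and 63.9 CPM with CD4 and 62.7, 58.9 and 156 CPM without it. The highest library exceeded the lowest 2.05-fold among CD4-positive libraries and 2.65-fold among the others. The log2 difference of -0.32 (SE 0.44) was 0.29 (SE 0.30) without CD4-negative replicate 3. Without that library and CD4-positive replicate 1 it was -0.07 (SE 0.13). S100a1 lies 42 bases away on the opposite strand, and without a stated strand setting reads of such close genes may not be fully told apart.

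Anxa6 (ENSMUSG00000018340.13; chr11:54979108-55033445, minus strand), a large annexin with a duplicated core that organises membrane domains, had the highest CPM of the members, 1275, 894 and 949 CPM with CD4 and 1074, 1123 and 1972 CPM without it. CD4-positive replicate 1 lay above the lower CD4-negative libraries. The log2 difference was -0.42 (SE 0.29, edgeR adjusted p = 1.0), and -0.08 (SE 0.20) without CD4-negative replicate 3. Without that library and CD4-positive replicate 1 it was -0.25 (SE 0.11).

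Anxa5 (ENSMUSG00000027712.13; chr3:36448923-36475894, minus strand), whose protein binds exposed phosphatidylserine, was at 94.4, 72.2 and 77.9 CPM with CD4 and 79.5, 74.1 and 114 CPM without it (log2 -0.13, SE 0.21). Anxa4 (ENSMUSG00000029994.17; chr6:86736840-86793584, minus strand), another membrane-binding annexin, was the lowest member at 6.21, 5.07 and 8.02 CPM with CD4 and 6.84, 5.40 and 12.1 CPM without it (log2 -0.33, SE 0.34). Without CD4-negative replicate 3 both changed sign, to 0.09 (SE 0.17) for Anxa5 and 0.08 (SE 0.26) for Anxa4. Without that library and CD4-positive replicate 1, Anxa5 was at -0.03 (SE 0.11) and Anxa4 at 0.10 (SE 0.28).

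**Figure D2:**
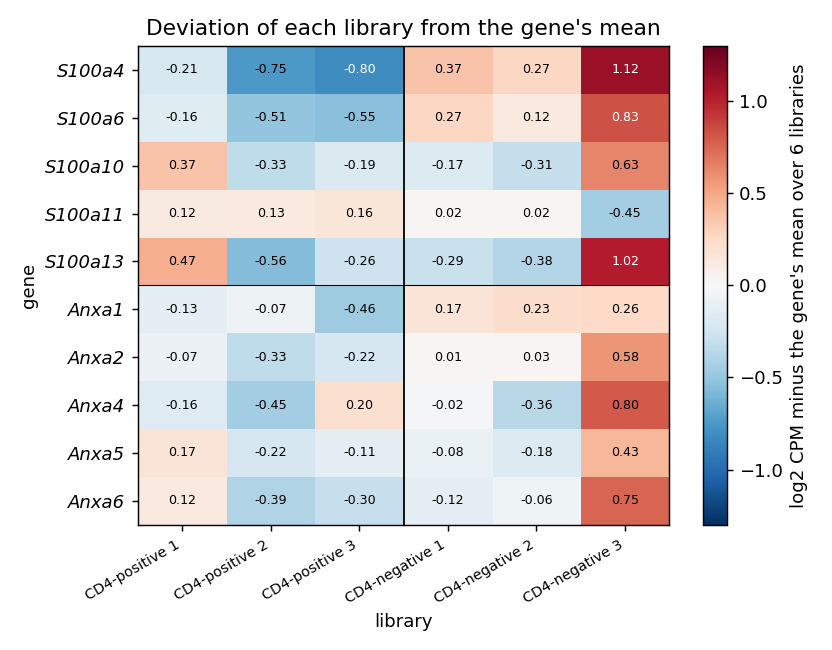
Log2 CPM of each library minus the gene's mean over 6 libraries (colour scale and printed values), genes in rows and libraries in columns, with the vertical line between CD4-positive (left) and CD4-negative libraries and the horizontal line between S100 genes and annexins. S100a4 runs from -0.80 to 1.12 and is negative in all 3 CD4-positive libraries, while S100a13 is positive in CD4-positive replicate 1 (0.47) and CD4-negative replicate 3 (1.02) and negative in the other 4.

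**Figure D3:**
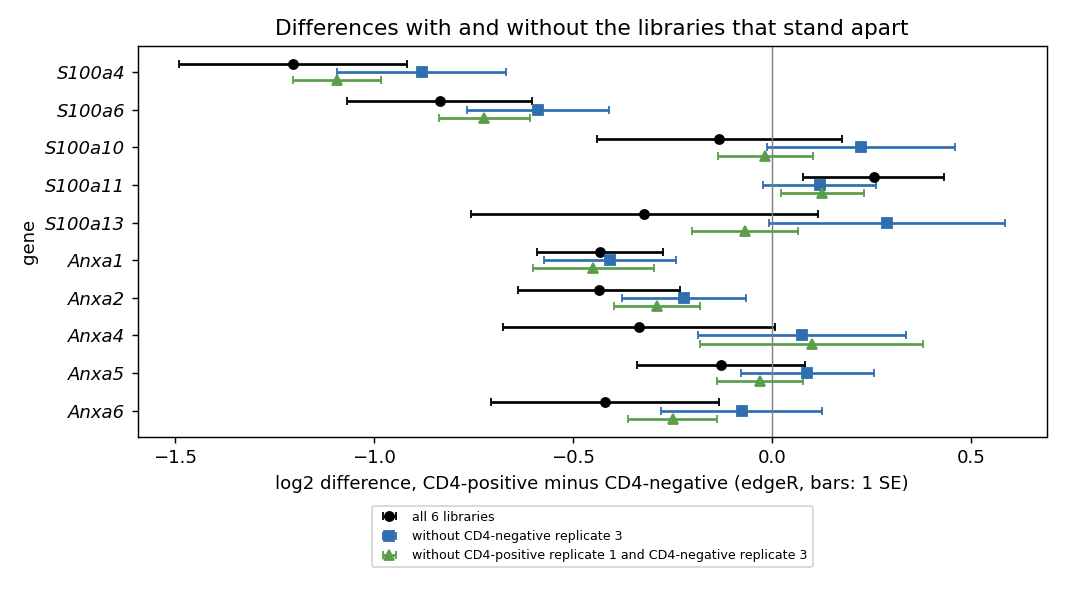
Log2 difference of each member (CD4-positive minus CD4-negative, edgeR, bars of 1 SE) with all 6 libraries (circles), without CD4-negative replicate 3 (squares) and without that library and CD4-positive replicate 1 (triangles). S100a4, S100a6, Anxa1, Anxa2 and Anxa6 stay below 0 in the 3 fits and S100a11 above 0, while S100a10, S100a13, Anxa4 and Anxa5 cross 0.

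Per kilobase of exon, the mean over 6 libraries was 750.1 ± 402 CPM for S100a4, 741 ± 104 for S100a11, 438 ± 132 for S100a10, 415 ± 135 for Anxa6 and 322 ± 124 for S100a6 (SD, n = 6). These 5 lay at percentiles 98.6 to 99.4 of tested genes. Anxa2 followed with 146 ± 35.2 CPM per kilobase, S100a13 with 117 ± 56.8, Anxa5 with 48.0 ± 8.95, Anxa1 with 20.9 ± 3.77 and Anxa4 with 1.57 ± 0.560, the last at percentile 30.2. Each neighbouring pair in this order from S100a4 to S100a13 had overlapping ranges, and the ranges of S100a13, Anxa5, Anxa1 and Anxa4 were separate. S100a4 was above S100a11 in the 3 CD4-negative libraries and below it in the 3 CD4-positive ones. With the longest transcript as the length, S100a10 passed S100a11 and S100a6 passed Anxa6. Summed, the 10 members made up 0.291% to 0.377% of counts in CD4-positive libraries and 0.366% to 0.547% in the others, with the highest share in CD4-negative replicate 3.

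**Figure D4:**
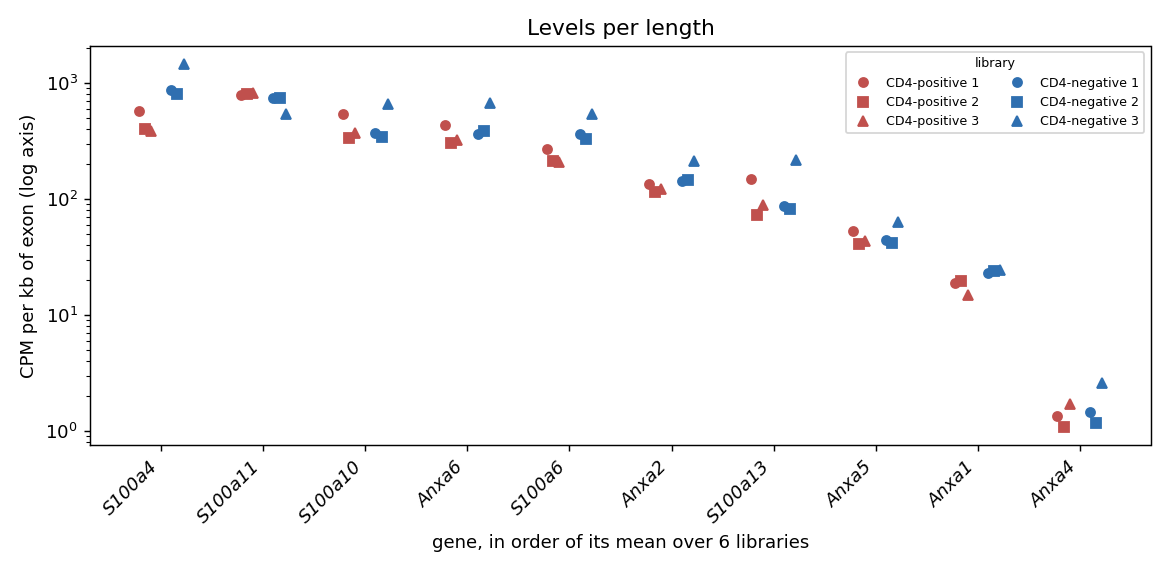
CPM per kilobase of exon (log axis) of each member in each library, ordered by the mean over 6 libraries, red for CD4-positive and blue for CD4-negative libraries, with circles, squares and triangles for replicates 1, 2 and 3. Means run from 750.1 for S100a4 down to 1.57 for Anxa4.

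Most other S100 genes had few or no counts. Of 12 further genes, S100a1, known as a regulator of calcium handling in muscle, was the 1 gene tested, at 8.56, 4.47 and 2.74 CPM with CD4 and 5.66, 5.35 and 10.5 CPM without it (log2 -0.45, SE 0.46, or -0.06 without CD4-negative replicate 3). S100a2, S100a8, S100a9, S100b, S100g and S100z had 0 counts in all 6 libraries, which allows up to 0.0555 to 0.0783 CPM per library (3 counts). S100A8 and S100A9 form calprotectin, a major protein of neutrophils. The other 5, S100a3, S100a5, S100a7a, S100a14 and S100a16, had at most 50 counts over the 6 libraries. Along chromosome 3, which carries 14 of the 17 S100 genes, the transcribed S100a1, S100a13, S100a4 and S100a6 thus share a stretch with S100 genes at or near 0 (90511034 to 90695721). S100a11 and S100a10 lie farther along, at 93520488 to 93564643, with 28792 bases between them.

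**Figure D5:**
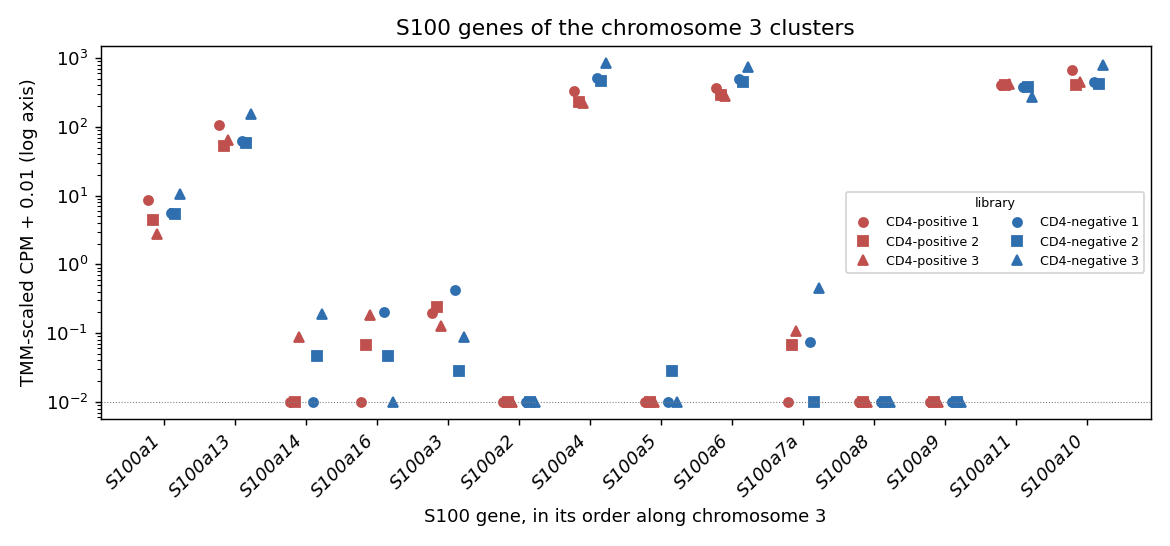
TMM-scaled CPM plus 0.01 (log axis) of the 14 S100 genes of chromosome 3 in their order, per library (red CD4-positive, blue CD4-negative, circles, squares and triangles for replicates 1, 2 and 3); the dotted line marks 0 counts. S100a4, S100a6, S100a11 and S100a10 have values of at least 224 CPM in every library, and S100a2, S100a8 and S100a9 lie on the dotted line.

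Among 7 further annexins 2 were tested and 0 were called by edgeR (0 at an unadjusted p under 0.05). Anxa7, which promotes membrane fusion, was at 79.8, 81.1 and 77.6 CPM with CD4 and 89.5, 91.9 and 85.1 CPM without it (log2 -0.16, SE 0.13), so its groups were separate. Anxa11, which tethers RNA granules to lysosomes, was at 221, 184 and 199.8 CPM with CD4 and 194, 196 and 259 CPM without it (log2 -0.10, SE 0.18, or 0.05 without CD4-negative replicate 3) with fractional counts in all 6 libraries. Anxa8, Anxa10 and Anxa13 had 0 counts.

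Of 24 listed binding partners of the families, 13 were tested and edgeR called 0 (0 at an unadjusted p under 0.05), with a median log2 difference of -0.02 (0.06 without CD4-negative replicate 3). Fpr1, Fpr2 and Fpr3, the receptors of annexin A1, had 0 counts. The smallest p belonged to Rasa1, a Ras GTPase-activating protein that annexin A6 binds (97.4 ± 12.7 CPM against 64.3 ± 27.3 CPM, log2 0.60, or 0.29 without CD4-negative replicate 3), and to Pdcd6, an EF-hand partner of annexins (64.4 ± 4.19 CPM against 71.6 ± 3.18 CPM, log2 -0.15, or -0.11 without that library). Of 19 other EF-hand genes, 17 were tested and 0 called (1 at an unadjusted p under 0.05, median -0.03, or 0.03 without that library). The reticulocalbins Rcn3 and Rcn1, calcium binders of the secretory pathway, came first, with 2.56 ± 0.969 CPM against 4.69 ± 0.477 CPM (log2 -0.87, or -0.78 without that library) and 51.6 ± 2.41 CPM against 64.4 ± 3.39 CPM (log2 -0.32, or -0.35). Of 14 membrane scrambling and repair genes, 12 were tested and 0 called (0 at an unadjusted p under 0.05, median 0.01, or -0.01), led by the flippase Atp11a (19.6 ± 1.78 CPM against 15.5 ± 4.78 CPM) and the calpain subunit Capns1 (384 ± 72.5 CPM against 433 ± 103 CPM). Leaving out that library, the log2 difference of Atp11a went from 0.33 to 0.10, and that of Capns1 changed sign, from -0.17 to 0.04.

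Of 18 effector and memory T cell genes, all tested, edgeR called 2, both lower in CD4-positive cells: the chemokine gene Ccl5 (94.7 ± 3.62 CPM against 459.8 ± 41.4 CPM, log2 -2.28, edgeR adjusted p = 0.00522) and the galectin gene Lgals3 (19.1 ± 2.16 CPM against 59.3 ± 8.62 CPM, log2 -1.63, edgeR adjusted p = 0.0298). Over all tested genes 0.212% were called. Without CD4-negative replicate 3 both passed, with Ccl5 at -2.35 and Lgals3 at -1.54, and 3 of the 18 were called, beside 0.335% of all tested genes. Without any other single library edgeR called 0 of all tested genes, the 18 included. Ccl5 then had an edgeR adjusted p of 0.0538 to 0.147 and Lgals3 of 0.0641 to 0.212. The list, chosen with earlier results of these data known, had a median log2 difference of -0.63, with 13 of the 18 below 0 and 5 above. Of the 18, 10 were lower in every CD4-positive library than in any CD4-negative one, and 1 was higher. Of all tested genes 4.57% were lower and 4.84% higher in this way. Of 8 naive T cell genes, edgeR called 0, with 5 above 0 and 3 below (median 0.195, or -0.06 without CD4-negative replicate 3). The 1 gene at an unadjusted p under 0.05, not reported here, was lower in CD4-positive cells. The chromatin organiser Satb1 was not that gene, and its groups overlapped. It stood at 591 ± 74.5 CPM against 495 ± 103 CPM (log2 0.25, or 0.10 without CD4-negative replicate 3).

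The profiles over the 6 libraries nearest to S100a4, by root mean square distance of centred log2 CPM among 9174 genes with a mean of at least 5 CPM, were those of Stard10, a lipid transfer protein (0.0839 log2 units), Pkig, an inhibitor of protein kinase A (0.0844), and Wdr95 (0.0875). Stard10 was at 17.2, 12.6 and 10.7 CPM with CD4 and 27.5, 27.1 and 43.0 CPM without it. Nearest to S100a6 were Crip1, a LIM-domain protein (0.0965), the GTPase Rras2 (0.111) and Styk1, a kinase-like receptor (0.121). Crip1 was at 60.7, 40.5 and 43.9 CPM with CD4 and 72.7, 69.0 and 126 CPM without it. Among the members S100a4 was nearest to S100a6 (0.201) and farthest from S100a11 (0.862). These genes share the 6 libraries, and the distances are a description.

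Markers of other cells were read beside these values. The myeloid list, with 3 of 9 genes tested, summed to 1.15 to 1.41 CPM with CD4 and 1.33 to 2.24 CPM without it, with S100a8 and S100a9 at 0. The stroma and epithelium list, with 5 of 8 tested, summed to 2.66 to 3.32 CPM with CD4 and 2.64 to 5.01 CPM without it. NK cell markers, some of which NKT1 cells also express, had 0 of 4 genes called by edgeR (3 at an unadjusted p under 0.05) and summed to 107 to 126 CPM with CD4 and 218 to 233 CPM without it. Of these, 3 were lower in every CD4-positive library than in any CD4-negative one, as were 4.57% of tested genes, among them Ncr1 (28.6 ± 6.86 CPM against 84.2 ± 9.08 CPM, edgeR adjusted p = 0.0545) and Eomes (11.7 ± 2.06 CPM against 35.6 ± 11.5 CPM, edgeR adjusted p = 0.0964). Both passed without CD4-negative replicate 3, as did 0.335% of all tested genes, with an edgeR adjusted p of 0.0463 for Ncr1 and 0.0301 for Eomes. Without any other single library edgeR called 0 of all tested genes, these 4 included. Immature thymocyte markers, 4 of 5 tested, summed to 15.9 to 97.2 CPM with CD4 and 18.5 to 132 CPM without it, highest in CD4-negative replicate 3. The B cell list, 2 of 5 tested, summed to 0.482 to 1.47 CPM with CD4 and 2.39 to 3.01 CPM without it, and the NKT2 and NKT17 list, 3 of 5 tested, to 4.15 to 5.98 CPM with CD4 and 1.11 to 4.80 CPM without it. Within that list edgeR called 0 genes (2 at an unadjusted p under 0.05), and of the 3 tested 2 lay above 0 and 1 below 0. Those above 0 were Il4, the cytokine of NKT2 cells, at 2.15 ± 0.260 CPM against 0.591 ± 0.197 CPM (log2 1.87, edgeR adjusted p = 0.201) and the receptor gene Il17rb at 1.46 ± 0.295 CPM against 0.164 ± 0.268 CPM (log2 3.12, edgeR adjusted p = 0.955). Both were higher in every CD4-positive library than in any CD4-negative one, as were 4.84% of tested genes. So were 3 of the 8 listed marker genes of T and NKT1 cells, none of them on the NKT2 and NKT17 list, with 0 lower in this way. Among these 3 was Zbtb16, which NKT2 cells express strongly, at 106 ± 40.9 CPM against 61.9 ± 1.82 CPM (log2 0.78, edgeR adjusted p = 0.804). The part of such cells in the S100 and annexin values was not tested.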

How the data were processed

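The data were RNA-seq libraries of sorted thymic NKT1 cells, 3 CD4-positive and 3 CD4-negative. The authors deposited unnormalised estimated counts per gene. The submitters' processing notes name STAR, Picard, RSEM and mm10; neither the annotation nor the strand setting was stated in the labels. Columns were matched to samples by library name. Estimated counts were rounded, and a model of group alone was fitted over all genes kept by filterByExpr with edgeR 4.0.16 (R 4.3.3), TMM scaling and the robust quasi-likelihood test, 2-sided, with Benjamini-Hochberg adjustment over all tested genes; the SE comes from the F statistic. The labels do not say whether replicates are separate animals, so the p-values cover the spread of these libraries, which may be technical. Chi-square per degree of freedom between libraries of a group was 55.6 to 400.5, so no pair was treated as a duplicate.

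Alternative fits used other scalings and filters, unrounded counts, DESeq2 1.42.0, limma-voom (limma 3.58.1) with and without quality weights, a replicate block, a batch term for the library naming scheme, replicates 1 and 2 alone, and each library left out. In both groups the library name of replicate 3 has another form than the numbered names of replicates 1 and 2. Omitting both libraries of low mitochondrial share, and DESeq2 without CD4-negative replicate 3, were added after seeing the data, as were the list genes under each setting. The fits were tested on counts simulated with edgeR's dispersions. DESeq2 made more false calls there than edgeR, and the limit set on false calls was not applied to DESeq2. Positions and exon lengths are from GENCODE M21 (GRCm38; 47224 identifiers found, versions ignored), promoters from RefSeq. Genes annotated as overlapping a member had means of at most 0.103 CPM. The text names all members, the called genes of each list or else the 2 with the smallest p, family genes with a mean of at least 1 CPM, and the 3 nearest profiles of S100a4 and S100a6, the members with the smallest p. Members and lists were chosen with earlier results of these data known. Some genes that this rule names are not reported here. Floors cover counting error only.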

Additional observations from a re-analysis of the deposited data

How the results depend on the processing

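Under all 19 alternatives the direction held for S100a4 (-1.41 to -0.77), S100a6 (-0.97 to -0.52), S100a11 (0.11 to 0.33), Anxa1 (-0.51 to -0.29), Anxa2 (-0.53 to -0.21) and Anxa6 (-0.59 to -0.01), in log2 units. The adjusted p of S100a4 ran from 0.00768 to 1.0 and passed in 4 of them. The count of members past the test was 0, but 1 (S100a4) with DESeq2, with quality weights, without CD4-positive replicate 1 and CD4-negative replicate 3 together, and with DESeq2 without CD4-negative replicate 3, and 3 at an unadjusted p under 0.05. It was 0 without any single library by edgeR.

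Signs reversed for 4 members. S100a10 was at 0.0319 with quality weights, 0.31 with replicates 1 and 2 only, 0.22 by DESeq2 without CD4-negative replicate 3, and -0.37 to 0.22 when a library was left out. S100a13 was at 0.39, 0.29 and -0.67 to 0.29 under the last 3 of these settings, and Anxa5 at 0.12, 0.0876 and -0.24 to 0.0895. Anxa4 was at 0.10 without both libraries, 0.0737 by DESeq2 without CD4-negative replicate 3 and -0.55 to 0.0753 when a library was left out. Without CD4-negative replicate 3 all 4 were above 0. Without CD4-positive replicate 1 as well, S100a10 (-0.02), S100a13 (-0.07) and Anxa5 (-0.03) were below 0 and Anxa4 above it. The cause was not tested.

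Genes past the test numbered 27, but 162 with DESeq2, 180 with quality weights, 67 with no filter, 11 with the naming scheme as batch, 9 with replicates 1 and 2 only, 66 without both libraries, 225 by DESeq2 without CD4-negative replicate 3, 68 at an adjusted p under 0.10 and 567 at an unadjusted p under 0.05. Leaving out a library gave 0 to 44, with 44 without CD4-negative replicate 3 and 0 without any other. With the replicate block edgeR called 0 genes (531 at an unadjusted p under 0.05), and S100a4 was at -1.17 (adjusted p = 0.675), Ccl5 at an adjusted p of 0.0558 and Lgals3 at 0.115. The numbers were not taken as pairs, since the labels do not state pairs. Deviations from the group means correlated at -0.08, 0.34 and 0.04 for same-numbered libraries and at -0.35 to 0.24 for differently numbered ones. With 3 libraries per group these values cannot decide whether the libraries were paired. Of the 10 per-kilobase ranks, 6 held with the longest transcript and 3 with plain CPM. The members with separate groups were the same 5 under the other scalings, and without CD4-positive replicate 1, a comparison of 2 with 3 libraries in which 24.8% of all tested genes had separate groups, Anxa6 made 6.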
